A study of Homo sapiens with 3 samples.

Results

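Genes that mark other cell lineages were examined as a background reference for CREBBP and for H3K27ac in SC1, a human lymphoma cell line whose label reads DLBCL (diffuse large B-cell lymphoma). The 7 genes were ALB and APOA1 of hepatocytes, CD3E and GATA3 of T cells, LYZ and MPO of myeloid cells, and SNAP25 of neurons. Each gene body on the human genome build hg19 was extended by 20 kb on both sides, and every interval of either peak list with at least 1 bp in such a window was taken. The genes were chosen by name and not by their values, although earlier results of these data were known. The windows spanned 436.7 kb in all and held 30 of the 215598 CREBBP peaks and 3 of the 18263 H3K27ac regions on chromosomes 1 to 22 and X.

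The series held 3 samples of SC1 cells, grown in RPMI1640 medium with serum and antibiotics. These were a chromatin immunoprecipitation (ChIP) with an antibody to CREBBP, one against acetylated lysine 27 of histone H3 (H3K27ac), and an input without antibody. Each antibody was used on 1 library of 1 line, so no value has a replicate error and none was tested. The labels give no treatment, although every peak name in the deposited lists begins with DMSO and contains rep2. The input was not analysed here. Neither list states how deeply its library was sequenced.

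CREBBP is a lysine acetyltransferase that transcription factors bring to promoters and enhancers, and H3K27 is among the residues it acetylates. H3K27ac marks active promoters and enhancers, so genes that a cell line does not use are usually free of it. The genes are textbook markers of their lineages. ALB encodes serum albumin and APOA1 the main protein of high-density lipoprotein, both made by the liver. CD3E encodes a signalling chain of the T-cell receptor complex, and GATA3 is a transcription factor that directs T-cell differentiation. LYZ encodes lysozyme and MPO myeloperoxidase, both antimicrobial enzymes of granulocytes or monocytes. SNAP25 encodes a SNARE protein that drives the fusion of synaptic vesicles. RNA was not measured in these samples, so the silence of the genes in SC1 is an assumption from lineage and not a result. Defining B-cell genes were not examined, because the hg19 gene positions at hand were those of these 7 genes.

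Sequence was at hand for the promoters of only 2 of the 7 genes, ALB and GATA3, and is shown for both. Neither gene's window held an H3K27ac region. The 2 sequences shown differ strongly in CG dinucleotides. They come from RefSeq on GRCh38.p14, on the plus strand, and cover the 250 bases before the start site (chr4:73404037-73404286 and chr10:8054438-8054687). GATA3 has 6 start sites in that table, and the one shown gives a gene length nearest to the hg19 gene body. Capitals mark CG dinucleotides.
ALB: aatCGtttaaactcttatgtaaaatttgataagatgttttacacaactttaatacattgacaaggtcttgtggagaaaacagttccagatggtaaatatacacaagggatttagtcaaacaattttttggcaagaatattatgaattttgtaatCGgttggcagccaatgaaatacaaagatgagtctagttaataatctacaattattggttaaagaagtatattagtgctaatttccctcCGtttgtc
GATA3: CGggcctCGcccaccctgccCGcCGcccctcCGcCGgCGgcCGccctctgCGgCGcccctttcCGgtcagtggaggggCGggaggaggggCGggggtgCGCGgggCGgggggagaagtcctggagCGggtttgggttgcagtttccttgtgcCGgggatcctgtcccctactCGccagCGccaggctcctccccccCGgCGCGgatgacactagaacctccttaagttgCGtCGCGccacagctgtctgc
The ALB promoter held 3 CG dinucleotides and a GC content of 30%, and 1.52% of the 35116 promoters in the table had a lower GC content. The GATA3 promoter shown held 26 CG dinucleotides and a GC content of 73.6%, above 86.9% of promoters. The median promoter held 11 CG dinucleotides (quartiles 3 and 23) and had a GC content of 58%. Short motifs were sought on both strands. CCAAT, the letters of the CCAAT box, occurred at 2 positions before ALB and at none before the GATA3 start site shown, and 32.0% of all promoters held it. GATAA, the core that GATA factors recognise, occurred at 1 position before ALB and at none before that GATA3 start site, against 20.4% of promoters. Neither sequence shown held TATAAA (10.7% of promoters) or an exact match to the palindromic consensus of the hepatocyte factor HNF1 (0.0057%). That exact consensus occurred in only 2 promoters of the table, so its absence says little. Near matches to any motif were not sought. The other 5 GATA3 start sites of the table differed from the one shown. Their CG dinucleotides ranged from 4 to 30, CCAAT occurred before 2 of them, GATAA before 1 and TATAAA before 1.

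H3K27ac was called in 2 of the 7 windows, those of LYZ and APOA1, and lay within 1 kb of none of the 7 start sites. The share of all start sites with H3K27ac this near was not computed. The windows of ALB, CD3E, MPO, SNAP25 and GATA3 held no H3K27ac region. As background, 22.3% of 50578 non-overlapping 60 kb tiles of the genome held at least 1 region. For tiles as long as each window this share was 17.7% for APOA1, 18.8% for LYZ, 20.2% for MPO, 20.3% for CD3E, 21.6% for ALB, 22.4% for GATA3 and 34% for SNAP25. A count of 2 of 7 windows is 28.6% (exact Clopper-Pearson 95% interval 3.67 to 70.96%), an interval that includes each of these shares. With 7 windows of unequal length the interval is wide, so including them says little. The 3 regions covered 3460 bp, 0.792% of the window length, against 1.12% of the genome. LYZ alone gave 3112 bp of this, and without its window 0.089% was covered. Over the gene bodies themselves, 156.7 kb in sum, 341 bp was covered, all in APOA1.

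**Figure D1:**
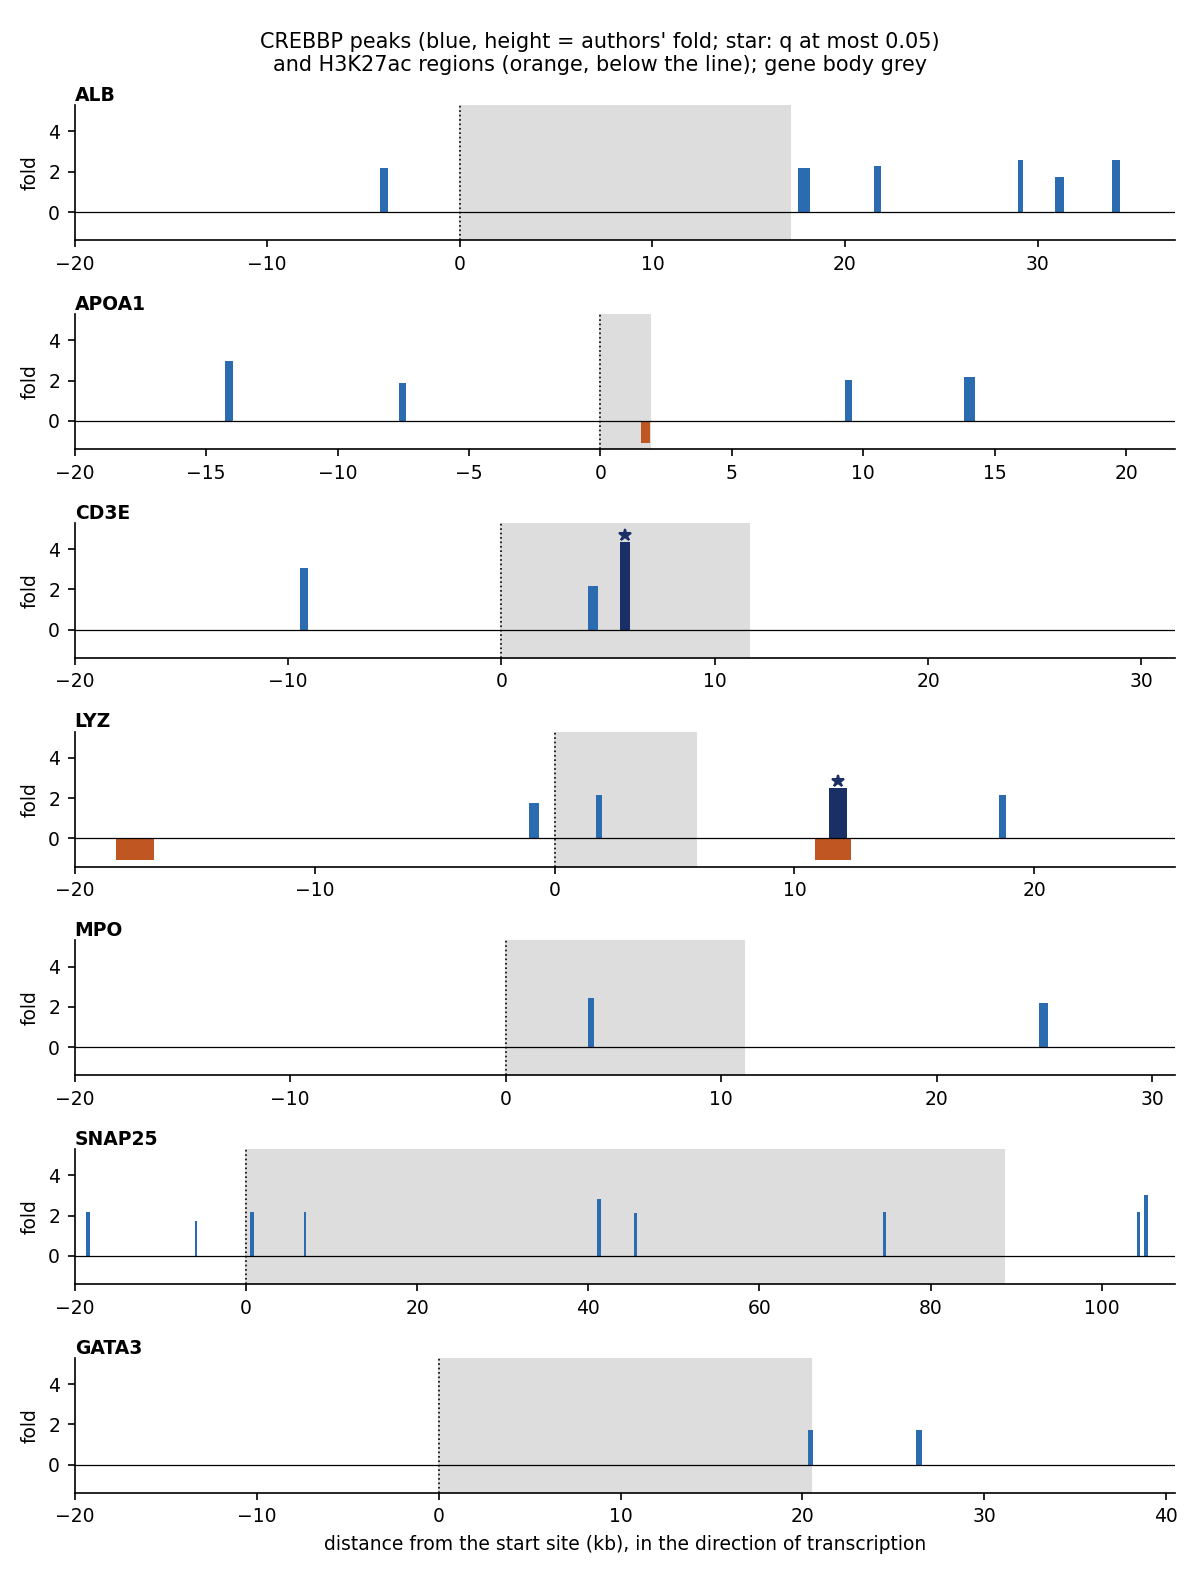
Positions of both marks in the 7 windows, with distance from the start site in kb in the direction of transcription on the x axis. Blue bars are CREBBP peaks with their height giving the authors' fold, stars mark q of at most 0.05, orange blocks below the line are H3K27ac regions (their height has no meaning) and grey is the gene body. H3K27ac is seen beside LYZ and at the far end of APOA1, and the 2 starred CREBBP peaks are in CD3E and beside LYZ.

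The LYZ window held the strongest H3K27ac of the set, on either side of the gene and not on it. The upstream region, at chr12:69723866-69725444, was 1579 bp wide and ended 16.7 kb before the LYZ start site. Its fold, the authors' ratio of ChIP signal to expected background taken as a mean over the region, was 14.8, and only 5.54% of the list had a higher one. The downstream region, at chr12:69752976-69754508, was 1533 bp wide with a fold of 12.7, and 8.61% of the list was higher. It began 10.8 kb after the LYZ start site, beyond the end of the gene. Both widths were near the list median of 1423 bp. In the gene table of GRCh38.p14 the gene that follows LYZ is YEATS4, which encodes a reader of histone acylation. Its position on hg19 was not used here, so the downstream region was assigned neither to YEATS4 nor to LYZ. That table places no other gene within 20 kb of LYZ.

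The APOA1 region was of another kind. It lay at chr11:116706460-116706807, covered the last 341 bp of the gene body and ran a few bases past its annotated end. Its nearer edge was 1.53 kb from the APOA1 start site. At 348 bp it was narrower than all but 3.87% of the list, with a fold of 5.31 beside a list median of 4.92. Its −log10 q of 63.3 exceeded that of 68.1% of the list. Among the 711 regions no wider than this one, the median −log10 q was 26.8, and 207 (29.1%) had a −log10 q at least as high, against 31.9% of all regions. The 1076 regions whose −log10 p lay within 10% of that of the APOA1 region had a median fold of 6.63 and a median width of 1656.5 bp, and 10.9% of them had a lower fold. No CREBBP peak overlapped the region, and the nearest was 7.42 kb away. Among regions no wider than this one 25.9% held a CREBBP peak, and among all regions 49.0%, so lacking one is common. In GRCh38.p14 the apolipoprotein genes APOA4 and APOC3 lie beyond this end of APOA1. SIK3, a kinase gene, lies on the side of its start, and the antisense transcript APOA1-AS overlaps the gene.

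**Figure D2:**
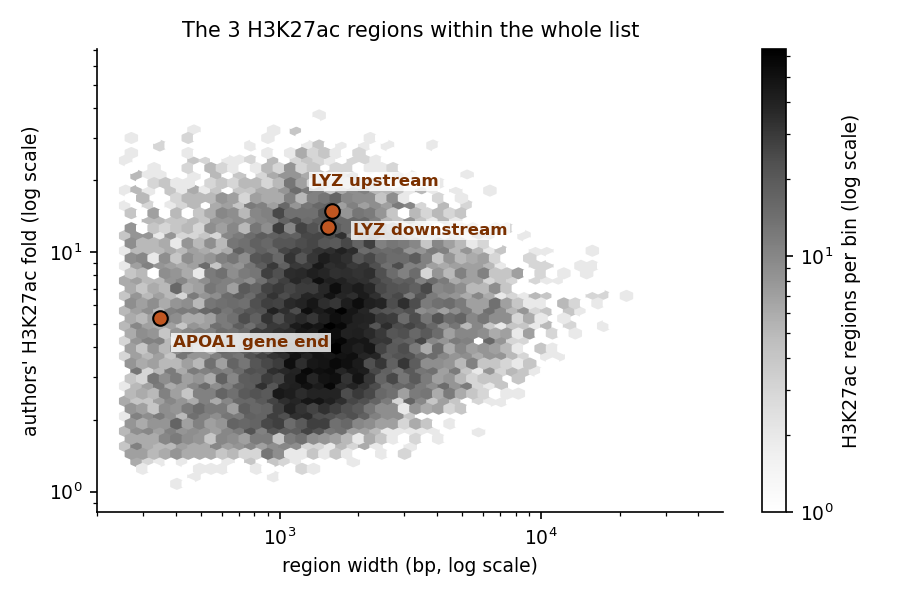
Fold against width for all 18263 H3K27ac regions, both on log scales, with darker bins holding more regions and the 3 regions of the windows in orange. The LYZ regions, with folds of 14.8 and 12.7, sit high at common widths, and the APOA1 region of 348 bp sits at the narrow edge with a fold of 5.31.

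Outside the windows the nearest acetylated chromatin differed widely between the genes. From the GATA3 start site the nearest H3K27ac region was 235.5 kb away with a fold of 1.97, and from SNAP25 it was 214.6 kb away with a fold of 2.32. ALB was 144.4 kb from a region with a fold of 5.05. CD3E was 55.0 kb from a weak region, at chr11:118230328-118231030, with a fold of 1.76, and only 3.29% of the list had a lower one. The MPO gene had a wide region nearer by. This region, 47.1 kb upstream of the start site at chr17:56405433-56417838, was 12406 bp wide with a fold of 6.03. With the windows extended by 50 kb in place of 20 kb, the regions numbered 6 and 3 windows were without one. The share of genome tiles of such lengths that hold a region was not computed. The 3 added regions were those named for CD3E and MPO and a 921 bp region with a fold of 7.27 beside APOA1.

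**Figure D3:**
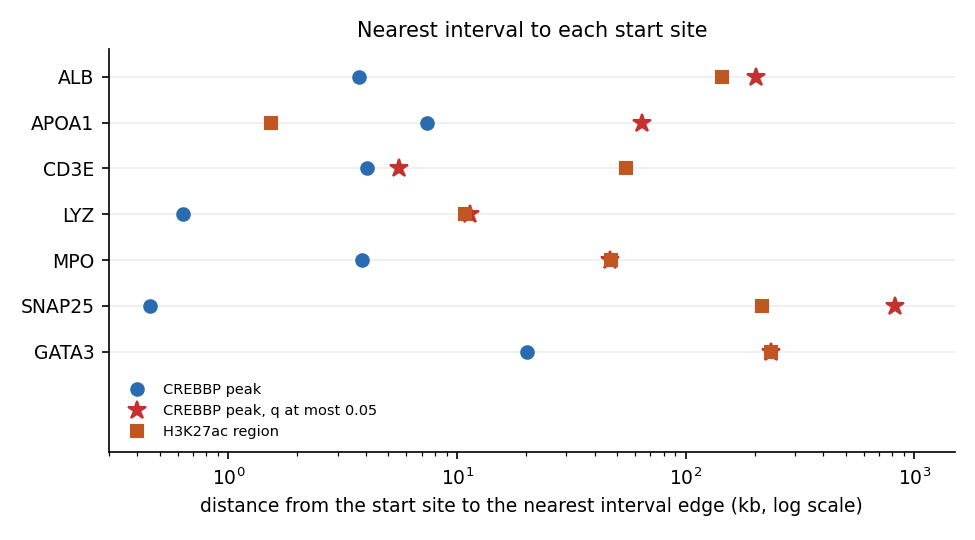
Distance in kb, on a log scale, from each start site to the nearest edge of a CREBBP peak (circle), of one with q no higher than 0.05 (star) and of an H3K27ac region (square). CREBBP peaks lie within 20.3 kb of every start site, while H3K27ac regions range from 1.53 kb at APOA1 to 235.5 kb at GATA3.

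CREBBP peaks were present in all 7 windows, at a density close to that of the whole list. The 30 peaks gave 68.7 per Mb (exact Poisson 95% interval 46.4 to 98.1), against 71.03 per Mb over the whole list, a ratio of 0.967 (0.653 to 1.38). Against 60 kb tiles that held no H3K27ac region the ratio was 1.03. Assembly gaps were not left out of these references, and 11.8% of 60 kb tiles held no CREBBP peak. Against tiles with at least 1 CREBBP peak, a reference chosen after seeing the data, the ratio was 0.847. The intervals hold counting error alone and take each peak as independent. By gene the count was 6 at ALB, 4 at APOA1, 3 at CD3E, 4 at LYZ, 2 at MPO, 9 at SNAP25 and 2 at GATA3. SNAP25 had the highest count and, at 128.6 kb, the longest window. Per Mb, ALB was highest at 105 (38.5 to 228) and GATA3 lowest at 33.1 (4.0 to 119). These intervals overlap, and each of the 7 holds the density of the whole list. In each of the 7 windows the count also lay within the quartiles of genome tiles of the same length, for example 6 peaks at ALB beside quartiles of 2 and 6, and 2 at GATA3 beside the same quartiles.

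**Figure D4:**
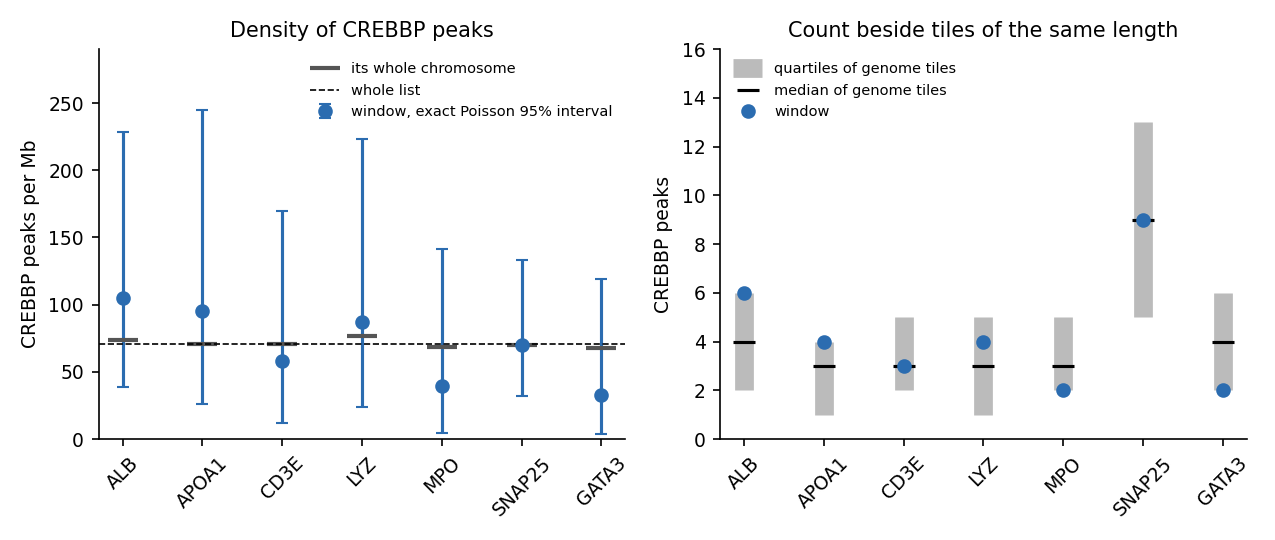
CREBBP peaks per Mb in each window with exact Poisson 95% intervals, beside the whole chromosome and the whole list (left), and the count in each window beside the median and quartiles of genome tiles of the same length (right). Every interval spans the whole-list density of 71.03 per Mb, and every count lies within the quartiles of its tiles.

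The peaks lay in gene bodies and flanks alike. On the gene bodies there were 10 peaks, or 63.8 per Mb (30.6 to 117), with 5 of them in SNAP25, 2 in CD3E and 1 each in LYZ, MPO and GATA3. The bodies of ALB and APOA1 held none. The 20 kb upstream flanks held 7 peaks, 50 per Mb (20.1 to 103), and the downstream flanks 13, 92.9 per Mb (49.4 to 159), of which 5 were at ALB. The flank intervals overlap. At ALB the downstream peaks were spread, by summit, from 17.6 to 34.0 kb after the start site. AFP, which encodes the fetal serum protein alpha-fetoprotein, is the next gene on that side in GRCh38.p14. None of the 7 start sites lay inside a CREBBP peak. At 2 start sites one was within 1 kb. Positions of other start sites on hg19 were not at hand, so no share over all start sites stands beside these counts. At SNAP25 a peak began 454 bp after the start site, with a fold of 2.17, and at LYZ one ended 635 bp before it, with a fold of 1.74. The nearest peak was 3.72 kb away at ALB, 3.82 kb at MPO, 4.05 kb at CD3E, 7.39 kb at APOA1 and 20.3 kb at GATA3. That GATA3 peak sat across the end of the gene, and the 20 kb before the start site and nearly all of the gene body held no interval of either list. In GRCh38.p14 the antisense transcript GATA3-AS1 overlaps GATA3, and the long noncoding RNA genes LOC105376394 and LOC105376395 lie on either side. The stretch without a CREBBP peak at GATA3 was 40.3 kb, the longest in the 7 windows.

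Most of these CREBBP peaks were as weak as the bulk of the list. The median fold was 2.17 in the windows and 2.17 in the whole list, and the highest in the windows was 4.34. A −log10 q of 0 was given to 24 of the 30 peaks, 80.0% (exact 95% interval 61.4 to 92.3%), against 80.7% of the list. Among the 30 peaks, 2 had a q of 0.05 or less, 6.67% (0.818 to 22.1%), beside 1.81% of the whole list. That interval includes the share of the list. The other 4 peaks had a −log10 q between these, one each in the APOA1 and CD3E windows and 2 in that of SNAP25. Inside an H3K27ac region lay 1 of 30 peaks, 3.33% (0.084 to 17.2%), against 5.06% of the whole list. More than 50 kb from any H3K27ac region lay 20 of 30, 66.7% (47.2 to 82.7%), against 63.0%.

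The number of fragments at each summit was solved from the fold and p, as an inference from the authors' values. Medians of fragments and of background were taken separately, so a pair of them need not describe 1 peak. In the windows the median was 4 fragments and the median background 1.30 fragments. In the whole list the median was 5 fragments, with the same median background. Peaks more than 50 kb from H3K27ac had a median of 4 fragments. Peaks inside H3K27ac regions had a median of 16 fragments and a median background of 6.87. By number, 5 of the 30 peaks had 3 fragments, 11 had 4, 6 had 5, 4 had 6 and 2 had 7. The remaining 2, with 9 and 27 fragments, were the peaks that reached q of at most 0.05. The 11 peaks of 4 fragments stood on the commonest background of the list and shared 1 fold, 2.17. They made up 36.7% (19.9 to 56.1%) of the peaks in the windows, against 21.8% of the list on that background. Peaks of 4 fragments on any background were 30.3% of the list. The interval includes both shares. All windows but those of APOA1 and GATA3 had at least 1 of these 11 peaks. Both GATA3 peaks had 3 fragments and a fold of 1.74, the lowest in the windows. The 4 peaks of the APOA1 window stood on backgrounds of 1.67 to 2.77 fragments, none of them on the commonest.

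**Figure D5:**
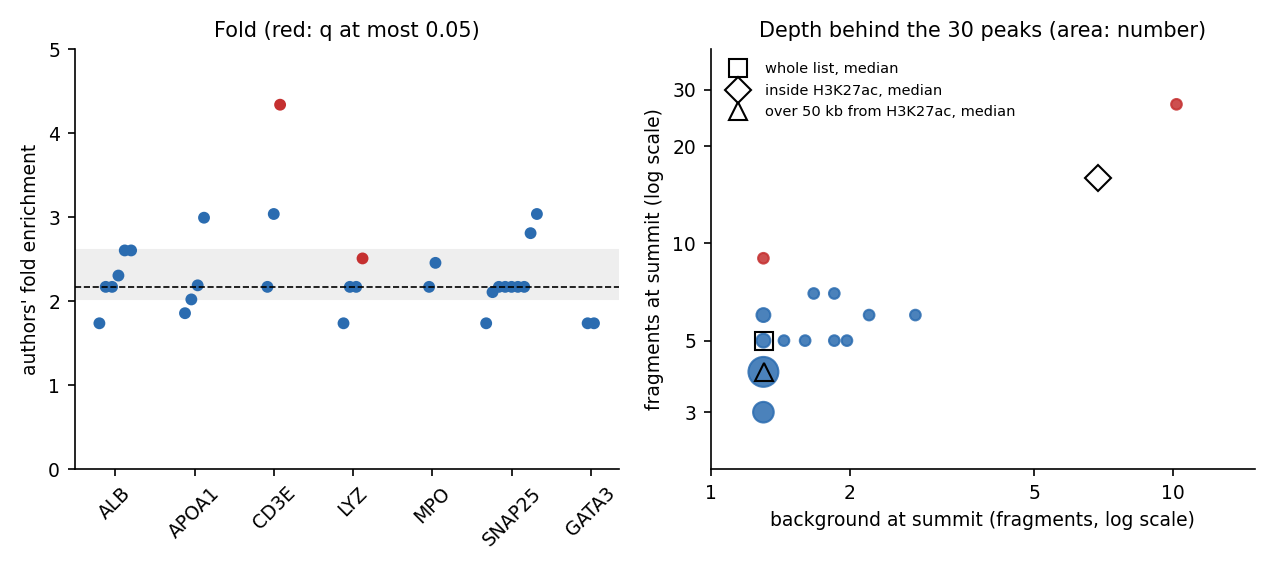
Fold of the 30 CREBBP peaks by gene (left; shaded band and dashed line give the quartiles and median of the whole list), and fragments against background at the summit, both on log scales (right; area gives the number of peaks, open symbols give medians). Of the 30 peaks, 28 have 3 to 7 fragments. The 2 red peaks, with q of at most 0.05, have 9 fragments in CD3E and 27 beside LYZ.

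The strongest CREBBP peak by fold was inside CD3E, in a window without H3K27ac. It lay at chr11:118180868-118181306, 5.57 kb after the start site, with 9 fragments over a background of 1.30. Its fold of 4.34 was above that of 99.6% of the list, and its −log10 q was 1.99. The nearest H3K27ac region was 49.0 kb away. A weaker peak stood 4.05 kb after the start site with a fold of 2.17 and 4 fragments, and another 9.085 kb before it with a fold of 3.04 and 6 fragments. CD3E had the highest median fold of the 7 windows, 3.04, over 3 peaks. The level rests on few fragments in 1 library, and whether it would recur in another was not tested.

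The peak beside LYZ was the only one of the 30 inside an H3K27ac region, and it had the most fragments. It lay at chr12:69753571-69754342, within the downstream region of fold 12.7, which was assigned to no gene. At 772 bp this peak was the widest of the 30. Its 27 fragments, more than at 99.0% of the list, stood over a background of 10.2, which gave a fold of 2.51 and a −log10 q of 1.68. The CD3E peak had 9 fragments and a higher fold, since its background was 1.30. The upstream LYZ region, with a fold of 14.8, held no CREBBP peak, and the nearest was 15.6 kb away. Of all H3K27ac regions, 49.0% held one. Just before the LYZ start site the CREBBP peak had 3 fragments and a fold of 1.74, the one in the gene had 4 fragments and a fold of 2.17, and a peak of 4 fragments lay 18.5 kb after the start site.

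Among the remaining genes no CREBBP peak reached q of at most 0.05. At APOA1 the highest fold was 2.99 with 7 fragments, 13.99 kb upstream of the start site, and the other 3 peaks had folds of 1.86 to 2.19. At SNAP25 the highest fold was 3.04 with 6 fragments, at 105.0 kb after the start site and beyond the end of the gene. The highest within the gene was 2.81 with 7 fragments. In GRCh38.p14 the antisense transcript SNAP25-AS1 overlaps SNAP25, and LOC105372524 and LOC124904959 lie on the side of its start. At ALB the folds ran from 1.74 to 2.60, with 3 to 5 fragments. MPO had a peak of fold 2.46 with 5 fragments in the gene, 3.82 kb after the start site, and one of fold 2.17 with 4 fragments 24.8 kb after it. On that side LPO, the gene of lactoperoxidase, follows in GRCh38.p14. The nearest CREBBP peak with q of 0.05 or less was 46.6 kb from the start site of MPO, 64.4 kb from APOA1, 201.8 kb from ALB, 236.2 kb from GATA3 and 820.5 kb from SNAP25. The windows' edges were not set by the data: the next CREBBP peak outside lay 0.028 kb beyond the edge at SNAP25 and 37.1 kb beyond it at GATA3.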

How the data were processed

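Peak lists of 2 ChIP libraries of SC1 cells were used, and the input library was left out. The submitters' processing notes name build hg19 and the tools MACS2, STAR, Bowtie2 and fastp. Versions and settings were not given in the sources used here, and neither the control library nor any pooling is known. The authors deposited a fold enrichment (a ratio to the expected background), a −log10 p, a −log10 q and a score for each CREBBP peak and H3K27ac region. The CREBBP list starts at a −log10 p of 1.30, so it holds weak peaks.

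Chromosomes 1 to 22 and X were used, with positions counted from 1. The gene bodies on hg19 were given with the choice of genes, and the strand of ALB and GATA3 came from RefSeq and that of the other genes from general knowledge. Neighbouring genes were taken from RefSeq on GRCh38.p14, where all 7 genes matched, by name only. Genome tiles were non-overlapping and as long as each window. Tiles and genome length ran from the first base of each chromosome to its last interval, and assembly gaps were not left out. With 1 library per antibody no test was made. Shares carry exact Clopper-Pearson and densities exact Poisson 95% intervals. Fragments n and background b were solved from fold = (n + 1)/(b + 1) and the Poisson tail above n. A whole n matched −log10 p within 0.001 for 215580 CREBBP peaks (99.99%), and the code was tested on simulated data. The genes, lists and rules were chosen with earlier results of these data known. The text names all 7 genes, every H3K27ac region in a window, each CREBBP peak of q at most 0.05, the largest fold in each window, the intervals nearest each start site and RefSeq neighbours within 20 kb. The H3K27ac regions outside the windows and the LYZ and APOA1 details within the list were described after their values were seen. Alternatives were windows of other extent, stronger peaks or regions, summit or midpoint in the window, other reference densities and leaving out each gene. Computation was in Python 3.11.15 with scipy 1.17.1, pandas 2.3.3, numpy 2.4.6 and matplotlib 3.10.9.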

Additional observations from a re-analysis of the deposited data

How the results depend on the processing

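The density of CREBBP peaks in the windows over that of the whole list, 0.967, stayed between 0.763 and 1.05 under the alternatives run, leaving out each gene included, except with peaks of q at most 0.05. There it was 3.56, from 2 peaks, and a single peak more or fewer would change it greatly. The median fold over that of the list was 1 in each alternative but that one, where it was 0.967, also from 2 peaks. The reference of 60 kb tiles with at least 1 CREBBP peak was chosen after seeing the data and gave 0.847. Counts moved with the extent of the windows, as they must. The gene bodies alone held 10 CREBBP peaks and 1 H3K27ac region, which covered 0.218% of their length. Windows extended by 50 kb held 63 CREBBP peaks and 6 H3K27ac regions, and 3 windows were without one. These 6 regions covered 0.928% of the wider windows, against 1.12% of the genome. Genome tiles of such lengths were not counted. Above the list median of −log10 p lay 11 of the 30 CREBBP peaks, beside 46.5% of the list, as many peaks share the median value. Of the 30, 2 had q of at most 0.05. The share of window length covered by H3K27ac, 0.792%, ranged from 0.089% to 1.12% when each gene was left out. The lowest value was without LYZ and the highest without SNAP25. Taking the upper 50% of H3K27ac regions, their midpoints or CREBBP summits changed no count. No paired analysis was possible because there was 1 sample per antibody. At a background of 1.30 fragments a peak of 3 fragments was already in the list, so a few fragments decide whether a weak peak is called, and the intervals given do not cover this.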
